A study of Mus musculus with 6 samples.

Results

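The genes described here are 9 receptors that steer leukocytes between blood, marrow, lymph node, thymus and gut: the sphingosine-1-phosphate (S1P) receptors S1pr1 and S1pr4 and the chemokine receptors Ccr2, Ccr7, Ccr9, Cxcr3, Cxcr4, Cxcr6 and Cx3cr1. They were selected by gene symbol and not by a cut on their values, although earlier results of these data were known, and make up 9 of the 54532 genes of the expression table. RNA was sequenced from bone marrow (BM) cells of C57BL/6 mice, 100 days after transplantation, in 3 libraries labelled Phf6 WT (WT 1 to WT 3) and 3 labelled Phf6 KO (KO 1 to KO 3). Both groups carried JAK3 M511I, an activating form of a Janus kinase, to model T-ALL, a leukemia of immature T cells. Per the study's methods, donors and recipients were 8-week-old male mice, and lineage-negative BM cells of the donors received JAK3 M511I with GFP from an MSCV retrovirus before transfer into lethally irradiated hosts. KO donors were Vav1-Cre;Phf6 fl/y, in which the Vav1 promoter drives Cre across hematopoietic cells and exons 4 to 5 of Phf6 are removed, and WT donors were Phf6 fl/y without Cre. The final digit of the gene in the genotype labels rises within a group (Phf6, Phf7, Phf8), and it was read as Phf6 throughout. The labels name the tissue as BM and give no sort, whereas the study speaks of the profiled cells as T-ALL cells and sorted GFP+ cells for other assays. A GFP gate would remove host cells, and whether it was used for these libraries is not given in the sources used here. They also do not say whether the libraries of a group came from separate mice, so the p-values measure the spread between these libraries, which may be technical.

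All 9 receptors are G protein-coupled receptors that signal mainly through inhibitory G proteins, and a cell that expresses one moves up a gradient of its ligand. S1P is abundant in blood and lymph and scarce inside tissues, and S1PR1 lets lymphocytes leave thymus and lymph node along that gradient. CXCR4 holds cells in the marrow, where stromal cells make CXCL12, CCR7 brings T cells into lymph nodes, CCR9 follows CCL25 in thymus and small intestine, and CXCR3, CXCR6, CCR2 and CX3CR1 are carried by effector lymphocytes and, for the last pair, by monocytes.

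The stretch just upstream of the transcription start is shown for Ccr9, the receptor that rose, and for Cxcr4 and S1pr4, the receptors with the highest levels beside it in the KO-labelled libraries. Each run holds the 250 bases before the start given by RefSeq (build GRCm38.p6), 5′ to 3′ on the strand of the gene, with matches to the KLF box, CACCC or its reverse complement GGGTG, in capitals. The windows are chr9:123766961-123767210 on the plus strand for Ccr9, chr1:128592300-128592549 on the minus strand for Cxcr4, and chr10:81500138-81500387 on the minus strand for S1pr4.
Ccr9: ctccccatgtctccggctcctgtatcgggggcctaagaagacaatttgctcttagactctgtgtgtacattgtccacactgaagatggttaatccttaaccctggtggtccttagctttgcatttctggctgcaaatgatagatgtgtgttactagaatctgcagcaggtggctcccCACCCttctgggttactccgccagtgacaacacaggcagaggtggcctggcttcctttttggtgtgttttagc
Cxcr4: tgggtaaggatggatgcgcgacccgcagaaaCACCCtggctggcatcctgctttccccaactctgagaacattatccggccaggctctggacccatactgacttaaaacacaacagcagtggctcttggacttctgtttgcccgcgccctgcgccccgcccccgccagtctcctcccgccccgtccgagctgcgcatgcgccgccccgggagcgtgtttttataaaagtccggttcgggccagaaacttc
S1pr4: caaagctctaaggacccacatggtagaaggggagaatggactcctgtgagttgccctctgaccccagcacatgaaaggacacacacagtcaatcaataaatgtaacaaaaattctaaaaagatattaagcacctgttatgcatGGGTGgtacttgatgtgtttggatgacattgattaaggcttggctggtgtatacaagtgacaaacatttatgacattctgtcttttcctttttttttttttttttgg

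The promoter table held 7 of the 9 receptors, all but S1pr1 and Ccr7. The KLF box, searched on both strands as were all motifs, was present in 4 of the 7 windows, those of Cxcr4, Cx3cr1, Ccr9 and S1pr4, and in 52.0% of the 32851 windows of the same length in the table. In Ccr9, which rose, the box began 73 bases before the start, and in S1pr4, which fell, it began 107 bases before it. The RefSeq start of Ccr9 lies 88772 bases downstream of the left end of the Ccr9 entry counted here. A coding transcript also begins at that left end, at 123678439, and the bases before it were not searched. The E-box CANNTG was found in 6 of the 7 windows and 66.2% of all windows, the RUNX box TGTGGT in 3 of the 7 and 14.1% of all, and the GATA box AGATAA in 1 of the 7 and 9.99% of all. No window of these receptors held the STAT-type box TTCNNNGAA, found in 7.02% of all windows, or the T-box motif AGGTGTGA, found in 1.12%. None of these motifs contains another, although matches can share bases. A match in a window is a description of its letters and not a bound site.

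The libraries held between 13015823 and 18235095 recovered reads (fragments per gene). Values are FPKM, fragments scaled to gene length and to a library size set by the authors, and 3 reads, the floor used here, corresponded to between 0.161 and 0.255 RPM. Phf6, the targeted gene (ENSMUSG00000025626, chromosome X, 52912266 to 52956943), did not pass the test: its FPKM was 7.47, 3.67 and 8.02 in WT 1 to WT 3 and 6.73, 5.50 and 5.11 in KO 1 to KO 3, with a log2 change of -0.073 (limma, adjusted p = 0.893). The value in WT 2 was under that of each KO-labelled library, and without it the groups did not overlap, with a log2 change of -0.37 that did not pass (limma, adjusted p = 0.0992). The deletion removes only part of this gene, so the directions below rest on the labels. The library labelled WT 2 stood apart: genes shorter than 1000 bases held 17.1% of its reads against 3.11% to 5.01% in the other 5 libraries, and the summed FPKM of 8 B cell markers was 1031 in it against at most 21.7 elsewhere. Each result on a receptor is therefore also given without WT 2.

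All 9 receptors passed the filter on low values (FPKM 1 or more in 3 or more of the 6 libraries). S1pr1 and Cx3cr1 passed it through the WT-labelled libraries alone, Ccr9 through the KO-labelled libraries alone, and the other 6 through both. The log2 change is the difference on the log2(FPKM + 1) scale, KO-labelled minus WT-labelled, and by it 7 receptors fell, 1 rose (Ccr9) and 1 did not pass the threshold of 0.05 on the adjusted p (Cxcr4). Of the 13393 genes tested, 3539 passed (26.4%), of which 1785 were lower (13.3%) and 1754 higher (13.1%), a split that became 1081 lower and 2279 higher after rescaling to TPM. The groups did not overlap in any of the 9 receptors, with 8 lower and 1 higher in all 3 KO-labelled libraries, against 22.9% of all genes without overlap and lower and 26.2% without overlap and higher. For S1pr1, Cx3cr1 and Ccr9 the filter fixed this absence of overlap in advance. Each passed with 1 group wholly at FPKM 1 or more and the other group wholly below 1. The same holds for every tested gene that passed through 1 group alone, whereas the other 6 receptors were free to overlap. The median log2 change was -2.47 over the 9 receptors and 0.086 over all genes tested. In bulk RNA, fewer cells of a type and less RNA per cell cannot be told apart, and this holds for every receptor below. With 3 libraries in each group, the smallest p of an exact permutation test is 0.1, so single receptors were judged by the limma model alone.

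**Figure D1:**
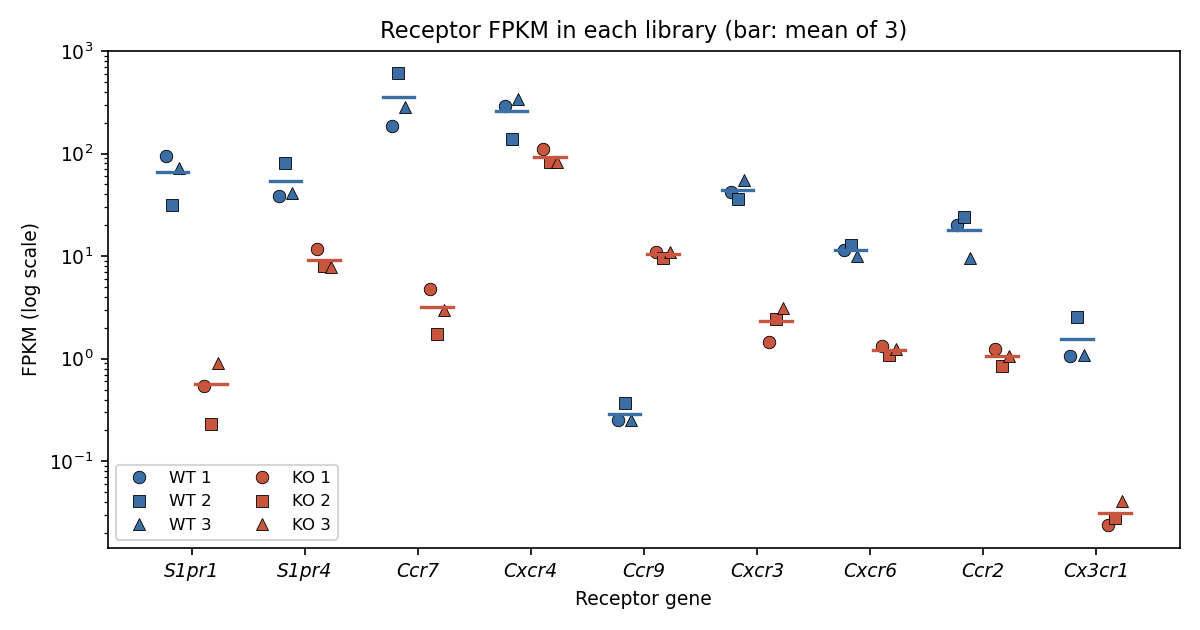
FPKM of each of the 9 receptors (log axis) in every library, with WT-labelled and KO-labelled libraries as separate points and a bar at each group mean. The 3 KO-labelled points lie below the 3 WT-labelled points for all receptors except Ccr9, where they lie between 9.53 and 11.0 above WT-labelled points of at most 0.373.

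Among the egress receptors, S1pr1 (ENSMUSG00000045092, chromosome 3, 115710433 to 115715072, minus strand, GRCm38) was nearly lost from the KO-labelled libraries. Its FPKM was 93.8, 31.7 and 72.7 in WT 1, WT 2 and WT 3, and 0.546, 0.229 and 0.918 in KO 1, KO 2 and KO 3. WT 2 was the lowest WT-labelled library, yet it stood 34.6-fold above the highest KO-labelled library. The means were 66.1 ± 31.5 and 0.564 ± 0.344 (SD, n = 3 each), a 117-fold difference. The log2 change was -5.31 (SE 0.44, 95% interval -6.37 to -4.25, limma, adjusted p = 0.000562), and 0.605% of the genes tested had a lower one. The KO-labelled values rested on 31, 11 and 45 reads against 4409, 1136 and 3430 in the WT-labelled libraries. Without WT 2 the log2 change was -5.76 (limma, adjusted p = 5.62e-05).

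S1pr4, an S1P receptor of lymphoid and myeloid cells (ENSMUSG00000044199, chromosome 10, 81497747 to 81500132, minus strand), fell less. Its FPKM was 38.6, 80.8 and 41.2 in WT 1 to WT 3 and 11.6, 7.93 and 7.81 in KO 1 to KO 3. Here WT 2 was the highest library, and the lowest WT-labelled library was 3.32-fold above the highest KO-labelled one. The means were 53.5 ± 23.6 and 9.12 ± 2.17 (SD, n = 3 each), a 5.87-fold difference, with a log2 change of -2.37 (SE 0.36, 95% interval -3.22 to -1.51, limma, adjusted p = 0.00448). With WT 2 left out it was -2.04 (limma, adjusted p = 0.000684). Within the KO-labelled libraries S1pr4 thus had a higher FPKM than S1pr1 in all 3, whereas the ranges of the pair overlapped in the WT-labelled libraries.

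Ccr7, the lymph node homing receptor (ENSMUSG00000037944, chromosome 11, 99144196 to 99155077, minus strand), had the lowest log2 change of the 9 receptors on the log2(FPKM + 1) scale, whereas by the ratio of means S1pr1 was lower. Its FPKM was 187, 605 and 283 in WT 1 to WT 3 and 4.83, 1.73 and 2.98 in KO 1 to KO 3. In the WT-labelled libraries Ccr7 and Cxcr4 held the top 2 places among the 9 receptors, whereas Ccr7 ranked 4 or 5 in the KO-labelled libraries. The means were 358 ± 219 and 3.18 ± 1.56 (SD, n = 3 each), a 113-fold difference, with a log2 change of -6.32 (SE 0.50, 95% interval -7.53 to -5.11, limma, adjusted p = 0.000499), and 0.194% of genes tested had a lower one. The library with the highest value was WT 2, and without it the difference was 73.8-fold and the log2 change -5.85 (limma, adjusted p = 0.000136).

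Cxcr4, the marrow retention receptor (ENSMUSG00000045382, chromosome 1, 128588199 to 128592293, minus strand), was the receptor with the highest level in the KO-labelled libraries. Its FPKM was 289.7, 140.0 and 343 in WT 1 to WT 3 and 112, 82.4 and 82.9 in KO 1 to KO 3. The groups did not overlap, but WT 2 lay only 1.26-fold above KO 1. The means were 257 ± 105 and 92.3 ± 16.6 (SD, n = 3 each), a ratio of 2.79, and the log2 change of -1.39 (SE 0.42, 95% interval -2.40 to -0.37) did not pass the threshold (limma, adjusted p = 0.0543). When WT 2 was omitted it was -1.77 and passed (limma, adjusted p = 0.000954). It also passed with median-of-ratios scaling, without the intensity trend, with array weights and with voom on the recovered reads, at adjusted p-values of 0.0482, 0.0407, 6.47e-05 and 0.0426 from limma. In 14 of 19 alternatives it did not pass, among them quantile normalization, at -0.83 (limma, adjusted p = 0.406). Under rescaling to TPM, which moved the median log2 change of all genes from 0.086 to 0.86, Cxcr4 was at -0.56 (limma, adjusted p = 0.572).

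Ccr9, the receptor for the thymic and intestinal chemokine CCL25 (ENSMUSG00000029530, chromosome 9, 123678439 to 123784330, plus strand), moved the other way. Its FPKM was 0.253, 0.373 and 0.252 in WT 1 to WT 3 and 11.0, 9.53 and 10.9 in KO 1 to KO 3. Each group was tight, and the lowest KO-labelled library stood 25.5-fold above the highest WT-labelled library. The means were 0.292 ± 0.0699 and 10.5 ± 0.809 (SD, n = 3 each), a 35.8-fold difference, and the reads were 40, 45 and 40 against 2095, 1539 and 1799. The log2 change was 3.15 (SE 0.21, 95% interval 2.65 to 3.65, limma, adjusted p = 0.000302), and 98.7% of genes tested had a lower one. Without WT 2 it was 3.19 (limma, adjusted p = 7.19e-05).

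The level of Ccr9 depends on the length assigned to it. The table gives 10260 bases for the union of its exons, whereas its coding transcripts run from 2620 to 5197 bases, so that the same reads would give a mean FPKM of 20.7 or 41.0 in the KO-labelled libraries at the longest or the shortest of them. Of its exon bases, 21.5% are shared with other annotated genes, and whether strand was used in counting is not given in the sources used here. The neighbours in the table that share them were low, but share only 22 bases (Slc6a20a) and 269 bases (Gm17200) of 2201. Slc6a20a had an FPKM of at most 0.271 in any library, and Gm17200 lay between 0.614 and 1.04 in the KO-labelled libraries and at most at 0.223 in the WT-labelled ones. A further overlapping gene on the opposite strand, AC165425.1, shares 1932 bases. It had no entry under that name in the table, so its level could not be given.

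Cxcr3, a receptor of effector T cells and natural killer (NK) cells for interferon-induced chemokines (ENSMUSG00000050232, chromosome X, 101731535 to 101734269, minus strand), fell in the KO-labelled libraries. Its FPKM was 42.2, 36.4 and 55.0 in WT 1 to WT 3 and 1.46, 2.46 and 3.12 in KO 1 to KO 3. The lowest WT-labelled library was 11.7-fold above the highest KO-labelled one. The means were 44.5 ± 9.52 and 2.35 ± 0.838 (SD, n = 3 each), a 19.0-fold difference, with a log2 change of -3.78 (SE 0.30, 95% interval -4.49 to -3.07, limma, adjusted p = 0.000480). With WT 2 left out it was -3.91 (limma, adjusted p = 0.000185).

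Cxcr6, the receptor for CXCL16 on effector and tissue-resident T cells (ENSMUSG00000048521, chromosome 9, 123806475 to 123811760, plus strand), had the smallest standard error of the falling receptors. Its FPKM was 11.4, 12.8 and 9.99 in WT 1 to WT 3 and 1.33, 1.09 and 1.25 in KO 1 to KO 3. No library stood out within either group, and the gap between them was 7.49-fold. The means were 11.4 ± 1.39 and 1.22 ± 0.127 (SD, n = 3 each), a 9.30-fold difference, with a log2 change of -2.47 (SE 0.22, 95% interval -3.01 to -1.94, limma, adjusted p = 0.000760). When WT 2 was omitted it was -2.39 (limma, adjusted p = 0.000174).

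Ccr2, which draws monocytes and effector T cells toward CCL2 (ENSMUSG00000049103, chromosome 9, 124101950 to 124113557, plus strand), fell as well. Its FPKM was 20.2, 24.2 and 9.51 in WT 1 to WT 3 and 1.25, 0.846 and 1.06 in KO 1 to KO 3. WT 3 was the lowest WT-labelled library, at 7.58-fold above the highest KO-labelled one. The means were 17.98 ± 7.61 and 1.05 ± 0.205 (SD, n = 3 each), a 17.1-fold difference, with a log2 change of -3.12 (SE 0.37, 95% interval -4.02 to -2.22, limma, adjusted p = 0.00201). Without WT 2 it was -2.87 (limma, adjusted p = 0.00107).

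Cx3cr1, the fractalkine receptor of monocytes, NK cells and effector CD8 T cells (ENSMUSG00000052336, chromosome 9, 119901616 to 120069879, minus strand), was the lowest receptor in the KO-labelled libraries. Its FPKM was 1.06, 2.57 and 1.09 in WT 1 to WT 3 and 0.0238, 0.0282 and 0.0414 in KO 1 to KO 3. These values rested on 74, 136 and 76 reads in WT 1 to WT 3 and on 2, 2 and 3 reads in KO 1 to KO 3, a ratio of summed reads of 48.3 with an exact 95% interval of 23.1 to 121 for counting error only. The means were 1.57 ± 0.861 and 0.0311 ± 0.00913 (SD, n = 3 each), and the log2 change, which the pseudocount of 1 pulls toward 0 at so low a level, was -1.27 (SE 0.25, 95% interval -1.87 to -0.67, limma, adjusted p = 0.0121). With WT 2 left out it was -1.01 (limma, adjusted p = 0.00276). The call was lost without KO 1 and without KO 2, with the log2 change at -1.27 in both cases (limma, adjusted p = 0.0502 and 0.0522). Of its exon bases, 78 are shared with Gm33858, an antisense gene with an FPKM of at most 0.0459.

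**Figure D2:**
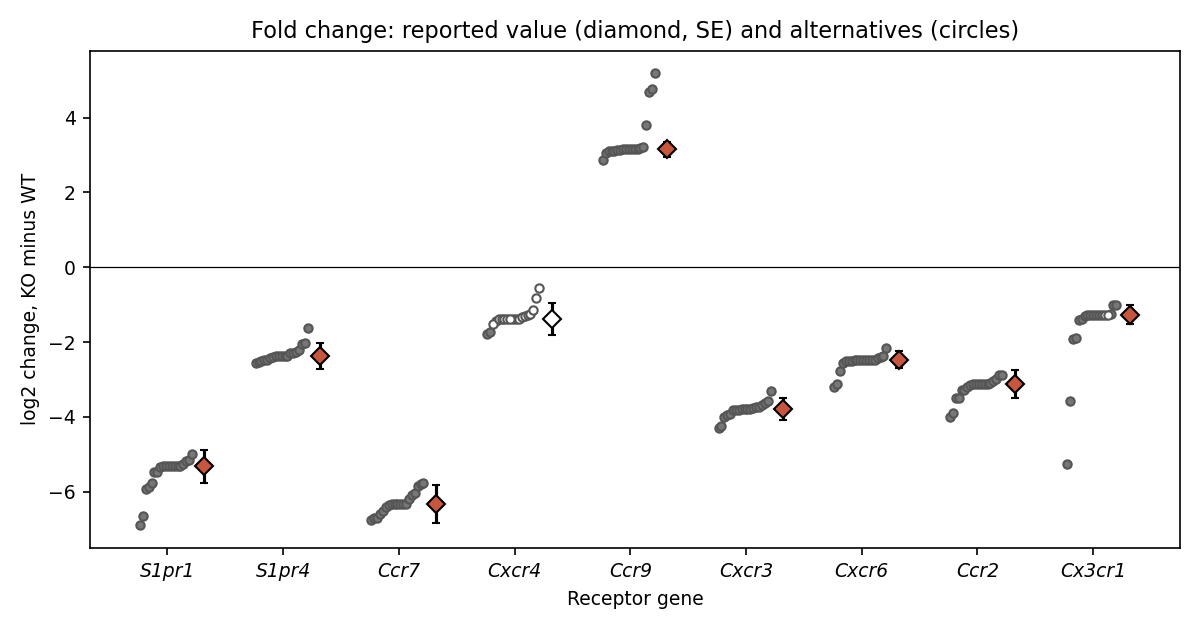
Log2 change (KO minus WT) of each receptor as reported (diamond, bar of 1 SE) and under each alternative that gave a value (circles), filled where the adjusted p was under 0.05. No circle crosses 0, Ccr9 stays between 2.87 and 5.18, Cxcr4 changes between open and filled, and Cx3cr1 reaches -5.25 with voom on the recovered reads.

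The order of the receptors by FPKM, a scale that divides by the length of the union of a gene's exons, changed between the groups. Some places depend on that length. At its shortest coding transcript, Ccr2 would have a KO-labelled mean of 3.14, beside 3.18 for Ccr7 and 2.35 for Cxcr3. Its WT-labelled mean would be 53.7, beside 53.5 for S1pr4. Ccr9 at its longest coding transcript would have a KO-labelled mean of 20.7, beside 9.12 for S1pr4. In the WT-labelled libraries the ranges of Ccr7 and Cxcr4 overlapped at the top, followed by S1pr1, S1pr4 and Cxcr3 with overlapping ranges, then by Ccr2 and Cxcr6 with overlapping ranges, then Cx3cr1 and, at rank 9 in each library, Ccr9. In the KO-labelled libraries Cxcr4 ranked 1 in each, Ccr9 and S1pr4 overlapped at ranks 2 and 3, Ccr7 and Cxcr3 overlapped behind them, and Cxcr6, Ccr2, S1pr1 and Cx3cr1 had the lowest levels. Among these, Ccr2 overlapped with Cxcr6 and with S1pr1. The summed FPKM of the 9 receptors was 684, 933 and 815 in WT 1 to WT 3 and 144, 106 and 111 in KO 1 to KO 3.

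As a share of this sum, Ccr7 made up 27.3%, 64.8% and 34.7% in WT 1 to WT 3 and 3.36%, 1.63% and 2.69% in KO 1 to KO 3. Cxcr4 made up 42.4%, 15.0% and 42.0% in WT 1 to WT 3 and 77.7%, 77.6% and 74.7% in KO 1 to KO 3, although its own FPKM was lower in each of the latter. Ccr9 went from between 0.0309% and 0.0400% to between 7.64% and 9.81%. S1pr4 kept a share of 5.05% to 8.65% in WT-labelled libraries and 7.04% to 8.10% in KO-labelled ones, so that the groups overlapped, while S1pr1 went from between 3.40% and 13.7% to between 0.216% and 0.827%. A share moves with the other receptors in the sum and with the length assigned to each.

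**Figure D3:**
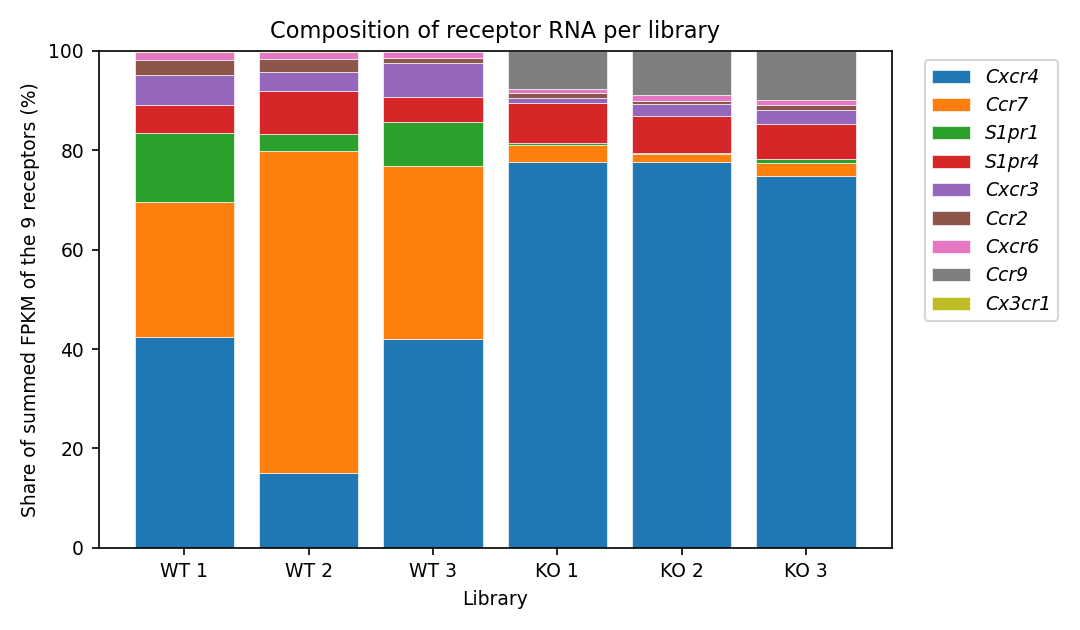
Share (percent, from 0 to 100) of the summed FPKM of the 9 receptors held by each receptor, as 1 stacked bar per library. Cxcr4 fills 74.7% to 77.7% of the KO-labelled bars, and Ccr7 with Cxcr4 fills most of the WT-labelled bars.

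The other receptors for S1P and chemoattractants were taken from a list of 26 genes, of which 13 were tested: 8 were lower, 1 was higher and 4 did not pass, with a median log2 change of -2.52. The gene that rose was Ccr4, a receptor for CCL17 and CCL22, with an FPKM of 0.168, 0 and 0.229 in WT 1 to WT 3 and 8.26, 15.3 and 10.02 in KO 1 to KO 3. Its log2 change was 3.39 (SE 0.28, limma, adjusted p = 0.000566), on a level in the WT-labelled libraries of 8, 0 and 11 reads. Ccr4 and Ccr9 were therefore the genes of both lists that rose, each to an FPKM above 8 in every KO-labelled library.

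Of the other S1P receptors, S1pr5, which serves NK cell and patrolling monocyte egress, went from a mean FPKM of 4.92 ± 0.809 to 0.0237 ± 0.0249 (SD, n = 3 each), the latter from 3 reads in all, with a log2 change of -2.52 (limma, adjusted p = 0.000479). S1pr2, which couples to other G proteins and restrains migration, was at 1.24 ± 0.572 and 2.94 ± 0.958 (SD, n = 3 each), with overlapping groups and a log2 change of 0.81 that did not pass (limma, adjusted p = 0.0964). When WT 2 was omitted it was 1.01 and passed (limma, adjusted p = 0.0193). S1pr3 did not pass the filter, with 15, 14 and 6 reads in WT 1 to WT 3 and 0 in the KO-labelled libraries, at least 13.8-fold lower against a floor of 3 reads over the group.

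Gpr183, the oxysterol receptor that positions lymphocytes in lymphoid tissue, went from 88.7 ± 19.6 to 5.55 ± 1.35 (SD, n = 3 each) with a log2 change of -3.77 (limma, adjusted p = 0.000445). Cxcr2, the receptor that draws neutrophils, fell from 37.7 ± 29.9 to 0.308 ± 0.369 (SD, n = 3 each), with a log2 change of -4.65 (limma, adjusted p = 0.00203). Ackr3, the scavenging receptor for CXCL12, had 4 reads over the WT-labelled libraries against 0, at or under the floor in each library, and no fold is given.

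The regulators of the egress receptors were a list of 6 genes, all tested, of which 4 fell and none rose past the threshold, with a median log2 change of -2.02, and 2 of the 6 were lower under rescaling to TPM. Klf2, the transcription factor that induces S1pr1, had an FPKM of 406, 806 and 738 in WT 1 to WT 3 and of 11.4, 4.64 and 4.61 in KO 1 to KO 3. The groups were thus far apart, with a log2 change of -6.41 (SE 0.45, limma, adjusted p = 0.000340), beside that of -5.31 for S1pr1. Cd69, a membrane protein that binds S1PR1 and takes it off the cell surface, fell too, from 94.7 ± 30.5 to 2.62 ± 0.182 (SD, n = 3 each), with a log2 change of -4.68 (limma, adjusted p = 0.000271). Il7r, the receptor chain for interleukin 7, fell from 173 ± 86.1 to 21.6 ± 4.25 (SD, n = 3 each; log2 change -2.80, limma, adjusted p = 0.00757), and lost its call under TPM at -2.01 (limma, adjusted p = 0.123). Foxo1, a transcription factor upstream of Klf2 and Il7r, was at 11.9 ± 2.34 and 4.52 ± 1.47 (SD, n = 3 each) with a log2 change of -1.24 (limma, adjusted p = 0.0236), a call lost under 7 of 19 alternatives. Klf3, a related factor, did not pass, with a log2 change of 0.017 (limma, adjusted p = 0.987).

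In the list of receptor signalling and desensitisation, 22 of 23 genes were tested, of which 10 fell, none rose past the threshold and 12 did not pass, with a median log2 change of -1.12. These counts moved with the scaling and the model, to 4 lower and 1 higher under rescaling to TPM and 16 lower and 1 higher with array weights, and 4 were lower without KO 2 and 6 without KO 1 or KO 3. Rgs1, which shortens signals of inhibitory G proteins, fell from 24.4 ± 6.00 to 1.32 ± 1.02 (SD, n = 3 each), with a log2 change of -3.51 (limma, adjusted p = 0.00139). Arrb2, a beta-arrestin that uncouples receptors, fell from 158 ± 88.9 to 15.7 ± 1.20 (SD, n = 3 each), with a log2 change of -3.10 (limma, adjusted p = 0.00350). Rgs18 and Arrb1 fell with log2 changes of -2.98 and -1.71 (limma, adjusted p = 0.00441 and 0.00616), although Arrb1 lost its call under TPM at -1.29 (limma, adjusted p = 0.156). Gnai2, the main inhibitory G protein alpha subunit of these receptors in lymphocytes, was at 203 ± 84.5 and 84.0 ± 12.8 (SD, n = 3 each) and did not pass, with a log2 change of -1.19 (limma, adjusted p = 0.0693). Without WT 2 it was -0.88 and passed (limma, adjusted p = 0.0235).

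Of 13 listed genes for ligands of the 9 receptors, 11 had a single entry in the table. Ccl19 and Ccl21a, which encode ligands of CCR7, had 2 entries each and were left out, so their levels are not given. Few of the 11 were measured well in these cells, and 2 were tested. Ccl2, the ligand of CCR2, had 37, 53 and 18 reads in WT 1 to WT 3 and 0 in each KO-labelled library, at least 42.6-fold lower against a floor of 3 reads over the group (log2 change -1.65, limma, adjusted p = 0.0127), and the call was lost when any 1 of the KO-labelled libraries was left out. Ccl25, the ligand of CCR9, was at 1.08 ± 0.316 and 2.05 ± 0.200 (SD, n = 3 each), with a log2 change of 0.56 that did not pass (limma, adjusted p = 0.0937). Among 8 genes of S1P metabolism and transport, 4 were tested and none passed in either direction, with a median log2 change of -0.46.

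**Figure D4:**
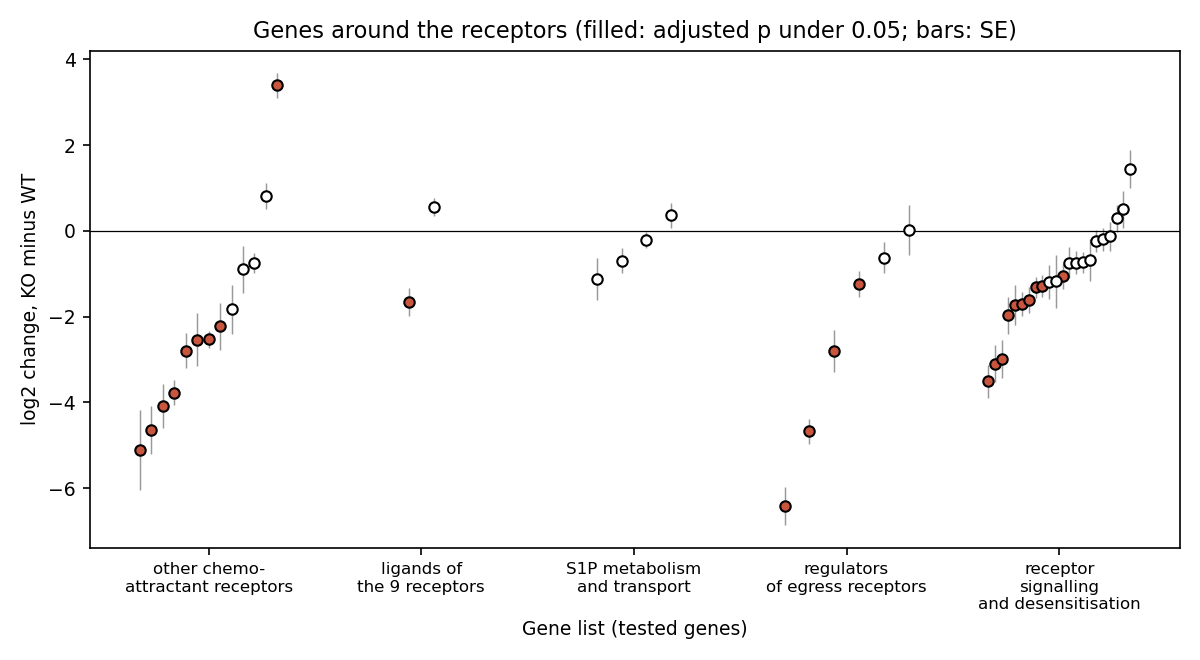
Log2 change (KO minus WT, bars of 1 SE) of the tested genes of 5 lists around the receptors, ordered within each list and filled where the adjusted p was under 0.05. Filled points lie below 0 in the regulators (4 of 6) and in the signalling list (10 of 22), and 1 filled point, Ccr4, lies above 0.

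Ccr9, Cxcr6 and Ccr2 lie on the same stretch of chromosome 9, a feature noticed after their values were seen. Over 435 kb from Ccr9 to Ccr2 the table held 9 protein-coding genes, of which 6 were tested, 2 were higher and 3 were lower. Beside Ccr9, Lztfl1, a gene of ciliary transport that lies within the annotated span of Ccr9 on the opposite strand, rose from a mean FPKM of 0.969 to 5.51, with a log2 change of 1.74 (limma, adjusted p = 0.00721). Fyco1, whose span holds Cxcr6, was at 0.72 and did not pass (limma, adjusted p = 0.348), while Cxcr6 inside it fell. Ccr1 fell with a log2 change of -4.09 (limma, adjusted p = 0.00241), as did Ccr2. The chemokine receptor genes of this stretch thus moved in both directions within the same libraries.

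**Figure D5:**
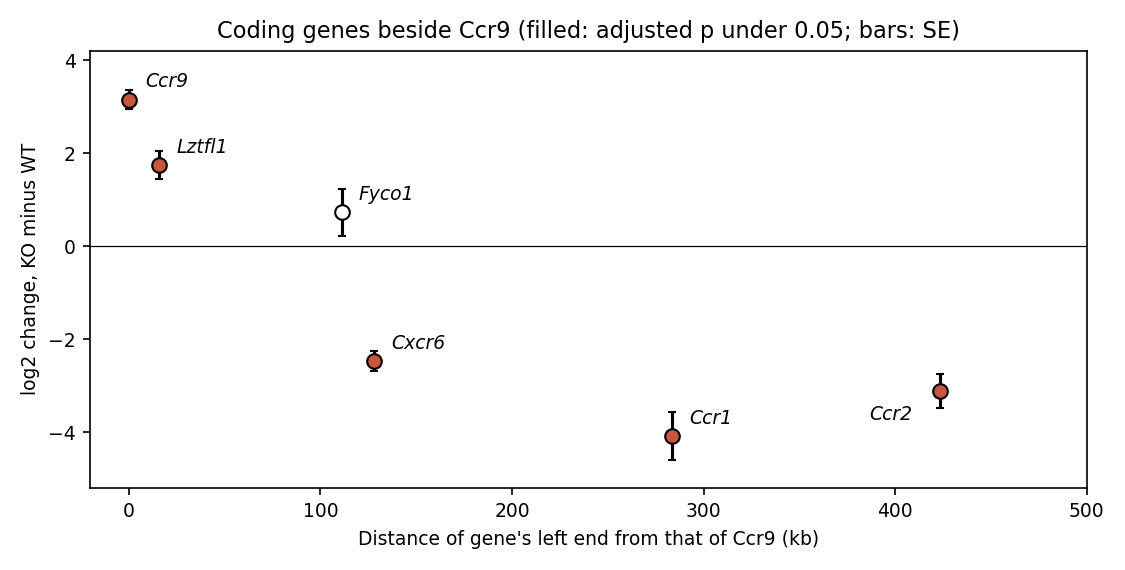
Log2 change (KO minus WT, bars of 1 SE) of Ccr9 and the tested protein-coding genes up to Ccr2, 6 in all, against the distance in kilobases of the left end of each gene from that of Ccr9, filled where the adjusted p was under 0.05. Ccr9 at 3.15 and Lztfl1 at 1.74 are higher, and Cxcr6, Ccr1 and Ccr2 are lower.

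Markers of the cells that carry these receptors also differed between the groups, and their part in the results above was not tested. The summed FPKM of 10 T cell markers was 919 to 1800 in WT-labelled libraries against 702 to 875 in KO-labelled ones, with 2 of 10 genes lower and none higher. T cell transcripts as a sum were thus abundant in both, but not each of them. Trac, the T cell receptor alpha constant gene, fell from a mean FPKM of 238 to 21.5 (log2 change -3.72, limma, adjusted p = 0.00596). Cd5 fell from 30.5 to 9.18 (log2 change -1.76, limma, adjusted p = 0.0200). The sum of 8 effector CD8 T cell markers went from between 542 and 1241 to between 20.1 and 41.6, with 8 of 8 genes lower, beside the fall of Cxcr3, Cxcr6, Ccr2 and Cx3cr1. Gzma, a granzyme gene placed in the NK cell list and picked out after its values were seen, went the other way. Its mean FPKM rose from 30.5 to 590 (log2 change 4.42, limma, adjusted p = 0.00165). The sum of 8 immature thymocyte markers went from between 135 and 212 to between 1089 and 1349, with 7 of 8 higher, beside the rise of Ccr9. Cd8a, which did not pass, made up most of the WT-labelled sum, and the other 7 summed to 2.8, 33.9 and 4.2 in WT 1 to WT 3 and to between 882 and 1076 in the KO-labelled libraries, with Ptcra at 0 in the former. Monocyte and macrophage markers summed to between 608 and 5078 in WT-labelled libraries and between 20.8 and 35.9 in KO-labelled ones (5 of 8 tested genes lower), and neutrophil markers to between 6674 and 93805 and between 91.4 and 282 (10 of 10 lower), in both cases with the highest sum in WT 2. The 5 dendritic cell markers summed to between 12.2 and 21.2 and between 0.356 and 0.410, with Cd209a at 0 in the KO-labelled libraries and 1 of 1 tested gene lower. B cell markers summed to 15.5, 1031 and 21.7 in WT 1 to WT 3 and to between 1.74 and 12.1 in the KO-labelled libraries, with 1 of 5 tested genes lower, so that the B cell sum was high in WT 2 alone. By FPKM, WT 2 also had the highest S1pr4, Ccr7, Cxcr6, Ccr2 and Cx3cr1. This depends on the authors' library size, 0.645 times the recovered reads in WT 2 against 1.01 and 1.06 in WT 1 and WT 3. WT 2 had the most recovered reads, yet fewer reads of Cxcr6 (290) and Ccr2 (1925) than WT 1 (340 and 2110). With the 3 Cd3 genes used as the scale, a setting chosen after seeing the data, 7 receptors were again lower and 1 higher, and Cxcr4 was at -1.38 (limma, adjusted p = 0.174).

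The genes whose pattern over the 6 libraries was most like that of the 3 receptors with the highest mean FPKM were sought among 10387 protein-coding genes, as a description by Pearson's r of log2(FPKM + 1), over points that fall into the 2 groups. For Ccr7 they were Dennd1c, Adgre5 and Sema4b, at r of 0.999, 0.998 and 0.998. For Cxcr4 they were Galnt11, Hipk2 and Herc4, at 0.999, 0.998 and 0.998. For S1pr1 they were Cd200r4, Prickle3 and Sorl1, each at 0.999.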

How the data were processed

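The 6 BM libraries (3 per genotype label) were made from total RNA. The submitters' processing notes name HISAT2 2.0.5, featureCounts 1.5.0-p3 and the build GRCm38 (mm10). The deposited table gives FPKM per gene, which the authors normalized to gene length and to a library size of between 0.645 (WT 2) and 1.21 (KO 2) times the recovered total. FPKM multiplied by length gave whole reads (within 0.01 reads, after division by the value of 1 read in that library) for 100% of values above 0. The study tested counts, whereas here log2(FPKM + 1) of the 13393 genes with FPKM 1 or more in 3 or more libraries was fitted with limma 3.58.1 in R 4.3.3 (two-sided, eBayes with an intensity trend), and p-values were adjusted over all of these genes by Benjamini-Hochberg and called under 0.05. The log2(FPKM + 1) scale understates changes of low genes. The fit was tested on simulated data. The intervals on log2 changes come from the limma standard errors and so reflect the spread between libraries. The interval on the ratio of summed reads and the floors cover counting error only, and PCR copies are not independent molecules. In 18 further settings, the fit was repeated with changes to the pseudocount (0.1, 0.5), the filter (none, or mean FPKM 5 or more), the scaling (median-of-ratios, quantile, TPM, a length trend removed) or the model (no intensity trend, array weights, replicate block, voom on whole reads), or with each library left out. Scaling to the Cd3 genes was added after seeing the data. The receptors, gene lists and tests were chosen with earlier results of these data known. Genes named are the 9 receptors, Phf6, up to 4 called genes of smallest p in each list, ligands with a mean FPKM of at least 1, Klf2, Cd69, Foxo1, S1pr2, S1pr3, S1pr5, Ackr3, Cxcr2 and Gnai2, and the 3 genes most like each of the 3 receptors of highest level. Klf3, Trac, Cd5 and the neighbours of Ccr9 were named after their values were seen. Some results under this rule are not reported here. Promoter windows, motifs and figures were made with Python 3.11.15, pandas 2.3.3, NumPy 2.4.6 and Matplotlib 3.10.9.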

Additional observations from a re-analysis of the deposited data

How the results depend on the processing

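Of 170 results for the receptors under 19 alternatives, 163 kept their direction and their side of the threshold, none reversed, 5 (Cxcr4) passed the threshold and 2 (Cx3cr1, without KO 1 or KO 2) lost it. Genes past the threshold went from 3539 (1785 lower, 1754 higher) to 1837 (1051 lower, 786 higher) at a mean FPKM of at least 5, where fewer genes were tested, and to 8461 (4073 lower, 4388 higher) with array weights, which gave WT 2 a weight of 0.0509. Rescaling to TPM gave 1081 lower and 2279 higher, and scaling to the Cd3 genes 1494 lower and 1097 higher, and the cause was not tested. Leaving out 1 library gave between 1934 and 6967 genes, with 996 to 3383 lower and 938 to 3584 higher, from 2071, 1934 and 2021 without KO 1, KO 2 and KO 3 to 6967 without WT 2. The log2 fold change of Phf6 turned to 0.69 under TPM and lay between -0.37 and 0.10 when 1 library was left out (-0.37 without WT 2, 0.055 without WT 1, 0.10 without WT 3). Same-numbered libraries deviated with correlations of 0.095, 0.105 and -0.153, so the numbers were not taken to pair them. With the replicate block, 8 receptors passed (7 lower, 1 higher), 2676 genes passed (1469 lower, 1207 higher), and Foxo1 lost its call among the 27 genes followed across the settings, which leave out Lztfl1, Ccr1, Gzma, Pdgfrb, Trac and Cd5. At this depth a KO-labelled level of 2 or 3 reads, as for Cx3cr1, limits the fold.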

Other observations

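In several marker lists a single gene, chosen after its values were seen, made up most of the sum in the KO-labelled libraries. NK cell markers summed to between 71.2 and 88.9 FPKM in the WT-labelled and between 566 and 616 in the KO-labelled libraries, where Gzma, a granzyme gene, had a mean of 590 against 30.5 (log2 fold change 4.42, limma, adjusted p = 0.00165), while 3 of the 4 tested genes of the list fell and Klra8 and Klra4 were at 0. Stromal and endothelial markers summed to at most 0.664 in the WT-labelled and to between 13.6 and 22.3 in the KO-labelled libraries, where Pdgfrb, a growth factor receptor gene, had a mean of 17.6 against 0.178 (log2 fold change 3.97, limma, adjusted p = 0.000320) and Kdr and Emcn were at 0. Plasmacytoid dendritic cell markers summed to 7.63, 472 and 9.30 in WT 1 to WT 3 and to between 422 and 575 in the KO-labelled libraries, where Ly6d had a mean of 498 against 146 (log2 fold change 4.27, limma, adjusted p = 0.104, not past the threshold). Siglech, the defining gene of that list, was at 0 in the KO-labelled libraries and had 634 reads in WT 2.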
